A study of Sus scrofa with 63 samples.

Results

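The genes described here are 10 genes of the uptake and lysosomal breakdown of proteins by enterocytes of the fetal pig jejunum: the receptors FCGRT, LRP2, CUBN and AMN, the adaptor DAB2, the lysosomal genes CTSB, CTSL, LAMP1 and LAMP2, and the transcription factor PRDM1. A probe was taken when its gene name in the array files equalled one of these symbols in any letter case. The array has 60305 probes and 14606 distinct gene names. The rule gave 28 probes, in 8 of the 10 genes: 4 for FCGRT, 1 each for LRP2, CUBN and AMN, 2 for DAB2, 4 for PRDM1, 7 for CTSB and 8 for LAMP2. No probe carried the names CTSL or LAMP1. All 28 passed the filter on dim probes, as did 40515 probes of the array.

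Jejunum RNA came from 63 male fetuses, 1 fetus per one-colour array. They were purebred Large White (LW) or Meishan (MS) fetuses or crosses of both breeds, LWMS from MS sows and LW boars and MSLW from LW sows and MS boars, sampled at day 90 or day 110 of gestation. At day 90 there were 9 LW, 6 MS, 9 LWMS and 8 MSLW fetuses, and at day 110 there were 9 LW, 7 MS, 9 LWMS and 6 MSLW. The sample was a whole segment of jejunum, so that a change in the share of a cell type and a change of RNA per cell cannot be told apart. The share of probes well above background ran from 56.3% to 87.6% over the arrays of day 90 and from 51.2% to 80.4% over those of day 110.

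Before birth and in the suckling period, enterocytes of the small intestine take up whole proteins from the lumen by endocytosis at the apical membrane, and in the distal gut many of these cells hold large lysosomal vacuoles. Cubilin and amnionless form a receptor complex, which with megalin (LRP2) and the clathrin adaptor DAB2 carries proteins inward. Cathepsins then degrade the cargo in lysosomes, whose membranes are rich in LAMP1 and LAMP2. FCGRT, the neonatal Fc receptor, binds IgG and albumin in acidic endosomes and spares them from breakdown, and in the suckling rodent it carries milk IgG across the epithelium. PRDM1, also called BLIMP1, is a transcriptional repressor that in the mouse holds the intestine in its fetal and suckling state until weaning.

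The values of LRP2, CUBN and AMN each rest on a single 60-base probe, and 2 CTSB probes differed in behaviour, so these 5 sequences are shown. They are given 5′ to 3′ as in the array files, in lower case.
LRP2, probe O268: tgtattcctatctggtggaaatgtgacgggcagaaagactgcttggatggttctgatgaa
CUBN, probe O2840: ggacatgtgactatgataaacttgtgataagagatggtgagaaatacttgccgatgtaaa
AMN, probe O10807: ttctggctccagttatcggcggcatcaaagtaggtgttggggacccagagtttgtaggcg
CTSB, probe A_72_P550091: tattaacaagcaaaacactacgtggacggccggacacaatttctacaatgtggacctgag
CTSB, probe O12329: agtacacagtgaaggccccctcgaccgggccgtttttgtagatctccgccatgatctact
Probes whose names start with A_72 belong to the catalogue set of the array, and the others were added from other designs. Of the 13549 added probes, 3145 shared 20 bases with a catalogue probe on the same strand only, 332 on the opposite strand only, and 30 on both. Of the 8 added probes among the 28, only the PRDM1 probe overlapped a catalogue probe, on the same strand. The strand of the other 7, which include the only probes of LRP2, CUBN and AMN, was not checked by any overlap, and their values are therefore values of the probe. The sequences of AMN O10807, CTSB O12329 and LAMP2 O1617 look like the reverse complement of the coding strand. This could not be checked against a transcript here, and if it is so these probes may not read the AMN, CTSB and LAMP2 transcripts. Levels below are on a log2 scale on which 0 is the 75th percentile of that array, and they are not compared between genes.

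Between day 90 and day 110, 14 of the 28 probes fell and none rose, when the change was averaged over the 4 genotypes. A call needed a limma p, adjusted by Benjamini-Hochberg over all probes tested, no higher than 0.01, and a log2 difference no smaller than 0.5 in size. Over the whole array, 7.71% of the probes were called lower at day 110 and 6.07% higher. The 14 probes were those of LRP2, CUBN and AMN, 1 of 2 of DAB2, 4 of 4 of PRDM1 and 6 of 7 of CTSB. The median difference was -0.54 over the 28 probes and -0.02 over all probes tested. Within the 8 array slides the difference was below 0 on 8 for LRP2, CUBN and FCGRT, on 7 for AMN, DAB2, PRDM1 and CTSB, and on 5 for LAMP2. Among the 21 probes that were catalogue probes or overlapped one, 11 fell. The fetuses came from litters, the labels do not name the sow, and litter mates were counted as independent, so the p-values may be too small.

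**Figure D1:**
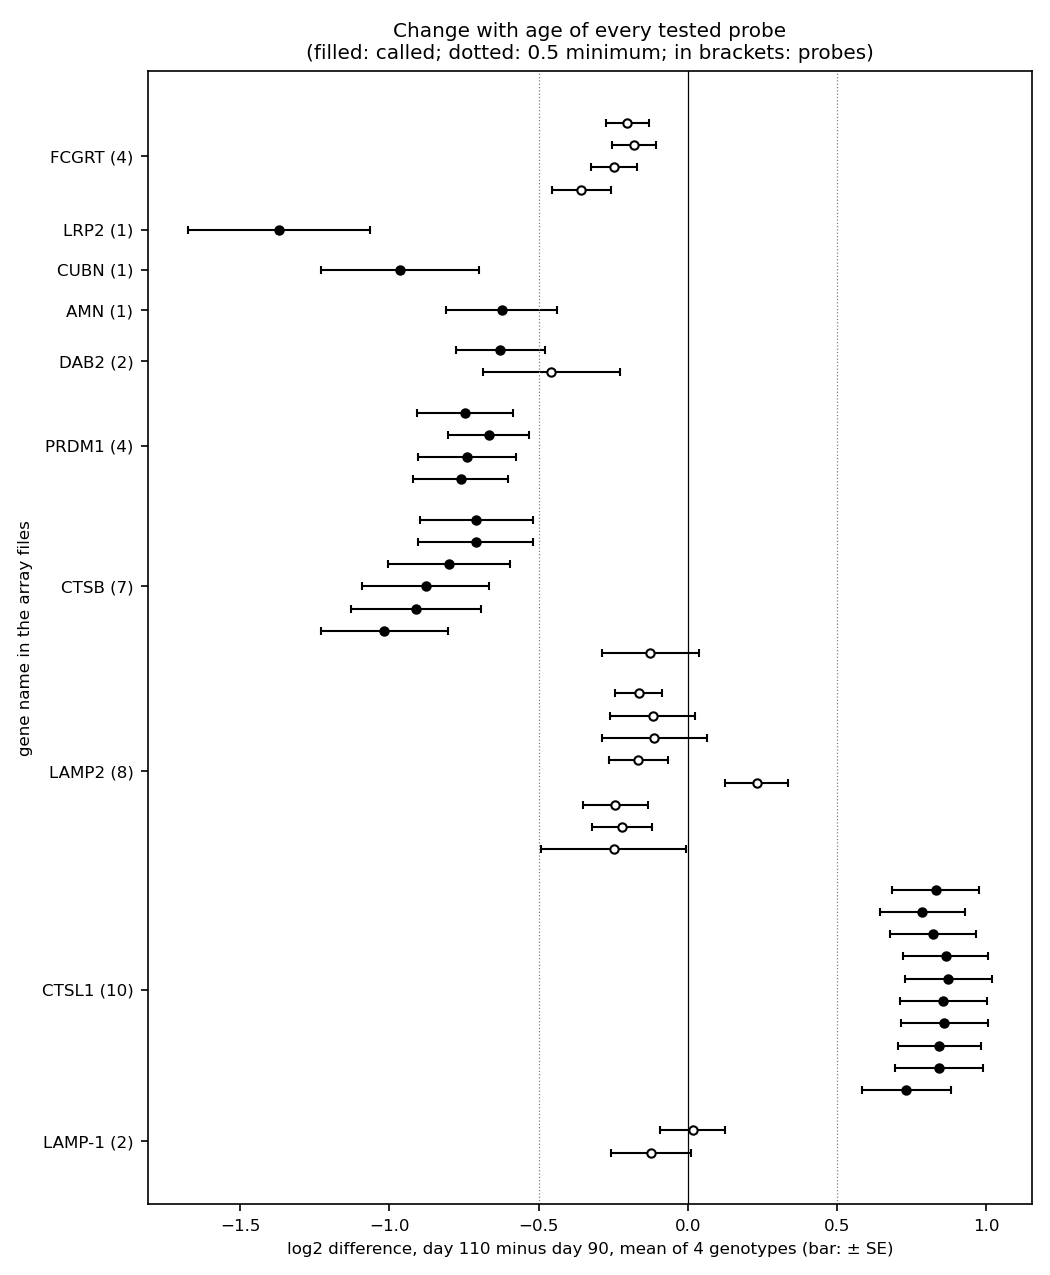
Log2 difference between day 110 and day 90, averaged over the 4 genotypes, with its standard error, for each tested probe of the genes (number of probes in brackets, brightest on top) and for the probes named CTSL1 and LAMP-1; filled points passed the threshold. PRDM1 and all but 1 of the CTSB probes lie below -0.5, FCGRT and LAMP2 lie between -0.36 and 0.23, and the CTSL1 probes lie above 0.73.

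LRP2, or megalin, is a large endocytic receptor of the apical membrane. At day 90 its level had a lowest, median and highest value of -4.08, -3.47 and -2.76 in LW, -3.11, -2.79 and -2.31 in MS, -3.38, -2.84 and -1.52 in LWMS, and -4.83, -3.00 and -2.33 in MSLW. At day 110 these were -7.50, -4.83 and -2.96 in LW, -8.24, -3.37 and -2.99 in MS, -6.33, -4.07 and -2.29 in LWMS, and -4.96, -3.73 and -2.49 in MSLW. The ages overlapped, and in LW, MS and LWMS their highest fetuses lay closer together than their lowest. In all, 13 of the 31 fetuses of day 110 lay below every fetus of day 90. The mean difference was -1.37 ± 0.30 (SE), or 2.58-fold lower at day 110 (limma, adjusted p = 0.000225). A catalogue probe, A_72_P143406, which carries no LRP2 name in the array files but is named so in the tables of the study, differed by -1.13 ± 0.38 (SE; adjusted p = 0.0145) and was not called. The LRP2 probe was well above background in 30 of 32 fetuses at day 90 and in 20 of 31 at day 110, and with normexp background correction the difference was -0.43, under the minimum of 0.5 (adjusted p = 0.00177).

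CUBN encodes cubilin, the peripheral receptor that binds intrinsic factor with vitamin B12, albumin and other proteins. At day 90 its lowest, median and highest levels were -4.71, -3.48 and -2.24 in LW, -7.60, -5.47 and -1.68 in MS, -5.14, -4.06 and -3.47 in LWMS, and -5.29, -3.75 and -3.10 in MSLW. At day 110 they were -6.36, -5.09 and -2.87 in LW, -6.50, -5.89 and -3.96 in MS, -6.61, -5.70 and -4.96 in LWMS, and -6.29, -4.25 and -2.12 in MSLW. The ages overlapped in each genotype, in LWMS by the lowest fetus of day 90 alone. The mean difference was -0.96 ± 0.27 (SE; limma, adjusted p = 0.00265). No fold is given, because this probe was the one most often near background, being well above it in 28 of 32 fetuses at day 90 and in 12 of 31 at day 110. The call was lost with normexp correction (-0.26, adjusted p = 0.0639) and in the authors' processed values (-0.48, adjusted p = 0.000279), where it was under the minimum difference.

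AMN encodes amnionless, the membrane anchor of cubilin. Its single probe is the one shown above whose strand is in doubt, so the values may not be those of the AMN transcript. The probe ran from -5.13 to -2.16 with a median of -3.89 over the 32 fetuses of day 90, and from -6.44 to -3.26 with a median of -4.31 over the 31 of day 110. Most of the fetuses of both ages shared 1 range, and 8 of day 110 lay below all of day 90. The probe was well above background in 29 of 32 fetuses at day 90 and in 21 of 31 at day 110. The difference was -0.62 ± 0.18 (SE; limma, adjusted p = 0.00524). The call was lost in 5 other ways of processing, namely normexp correction (-0.14, adjusted p = 0.244), quantile normalization (-0.62, adjusted p = 0.0108), median centring (-0.57, adjusted p = 0.0121), the authors' values (-0.28, adjusted p = 0.0137) and array weights (-0.37, adjusted p = 0.0442).

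FCGRT was measured by 4 probes, which were well above background in every fetus. The brightest probe ran from 6.10 to 7.29 with a median of 6.55 at day 90, and from 6.01 to 7.03 with a median of 6.40 at day 110. Both ages covered nearly the same range, and the difference of -0.20 ± 0.07 (SE) was below the minimum of 0.5 (limma, adjusted p = 0.0213). Over the 4 probes the differences ran from -0.36 to -0.18, with adjusted p from 0.00293 to 0.0459, and none was called. The largest of these differences, that of A_72_P570294, was -0.36 ± 0.10 (SE), or 1.28-fold lower, and within genotypes this probe differed by -0.18 in MSLW to -0.46 in LWMS. With the sum of epithelial markers described below as a covariate, the brightest probe was called lower in MS (-0.58, adjusted p = 0.00122). FCGRT followed that epithelial sum across fetuses, as deviations from group means, both at day 90 (n = 32, r = 0.861, permutation p = 1e-05, adjusted 0.00012; rho = 0.811, permutation p = 1e-05, adjusted 0.00016) and at day 110 (n = 31, r = 0.552, permutation p = 0.00135, adjusted 0.00712; rho = 0.483, permutation p = 0.00641, adjusted 0.0271). Without the 2 fetuses farthest from the median of FCGRT, r was 0.801 and 0.63. At day 90 it was also related to the sums of endothelial (r = -0.727), blood cell (r = 0.695) and macrophage markers (r = 0.529), and at day 110 to those of endothelial (r = -0.555) and macrophage markers (r = 0.498), with permutation p adjusted to at most 0.0167.

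DAB2 links the tails of LRP2 and related receptors to the clathrin coat. At day 90 its brighter probe had lowest, median and highest levels of 4.06, 4.77 and 5.02 in LW, 4.17, 4.51 and 4.79 in MS, 4.39, 4.58 and 4.85 in LWMS, and 4.56, 4.76 and 5.38 in MSLW. At day 110 they were 2.27, 3.80 and 4.97 in LW, 2.38, 4.14 and 4.64 in MS, 2.69, 4.54 and 4.99 in LWMS, and 3.96, 4.81 and 5.01 in MSLW. The fetuses of day 90 were closely grouped, while 14 of the 31 of day 110 lay below all of them and 8 lay at or above their median. The difference was -0.63 ± 0.15 (SE), or 1.55-fold lower (limma, adjusted p = 0.000497). The second probe, O10584, differed by -0.46 ± 0.23 (SE; adjusted p = 0.108) and followed the first over the 63 fetuses (Pearson's r = 0.86). A catalogue probe that only its description assigns to DAB2, A_72_P184386, stands outside the 28 and differed by -0.96 ± 0.21 (SE; adjusted p = 0.000171).

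PRDM1 fell in 4 of 4 probes, by 0.67 to 0.76 on the log2 scale. Its brightest probe had lowest, median and highest levels of -0.35, 0.34 and 1.27 in LW, 0.10, 0.99 and 1.50 in MS, 0.53, 0.84 and 1.45 in LWMS, and 0.22, 0.73 and 1.56 in MSLW at day 90. At day 110 they were -1.38, -0.53 and 1.01 in LW, -1.70, 0.24 and 0.91 in MS, -1.77, 0.14 and 0.71 in LWMS, and 0.08, 0.46 and 0.79 in MSLW. In each genotype the highest fetus of day 110 stayed within the range of day 90, and 10 of the 31 fetuses, none of them MSLW, lay below all of day 90. The difference was -0.75 ± 0.16 (SE), or 1.68-fold lower (limma, adjusted p = 0.000134), and was called under each of the alternatives.

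CTSB encodes cathepsin B, a cysteine protease of the lysosome. At day 90 its brightest probe had lowest, median and highest levels of 6.12, 6.67 and 7.18 in LW, 6.43, 6.70 and 7.18 in MS, 6.40, 6.92 and 7.36 in LWMS, and 5.52, 6.68 and 7.51 in MSLW. At day 110 they were 4.41, 5.04 and 6.92 in LW, 4.18, 6.22 and 7.10 in MS, 4.76, 6.54 and 7.12 in LWMS, and 5.50, 6.32 and 7.11 in MSLW. The ages overlapped in each genotype, and 11 of the 31 fetuses of day 110 lay below all of day 90. The difference was -0.71 ± 0.19 (SE), or 1.63-fold lower (limma, adjusted p = 0.00204); with median centring it missed the threshold (-0.66, adjusted p = 0.0105). The 6 catalogue probes, 2 of which have the same sequence, fell by 0.71 to 1.02. The largest difference was that of A_72_P550091, shown above, at -1.02 ± 0.21 (SE; adjusted p = 9.4e-05). The added probe O12329, whose strand is in doubt as said above, differed by -0.13 ± 0.16 (SE; adjusted p = 0.581) and followed the brightest probe less closely (r = 0.447 over the 63 fetuses) than the other 5 did (0.917 to 0.999).

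**Figure D2:**
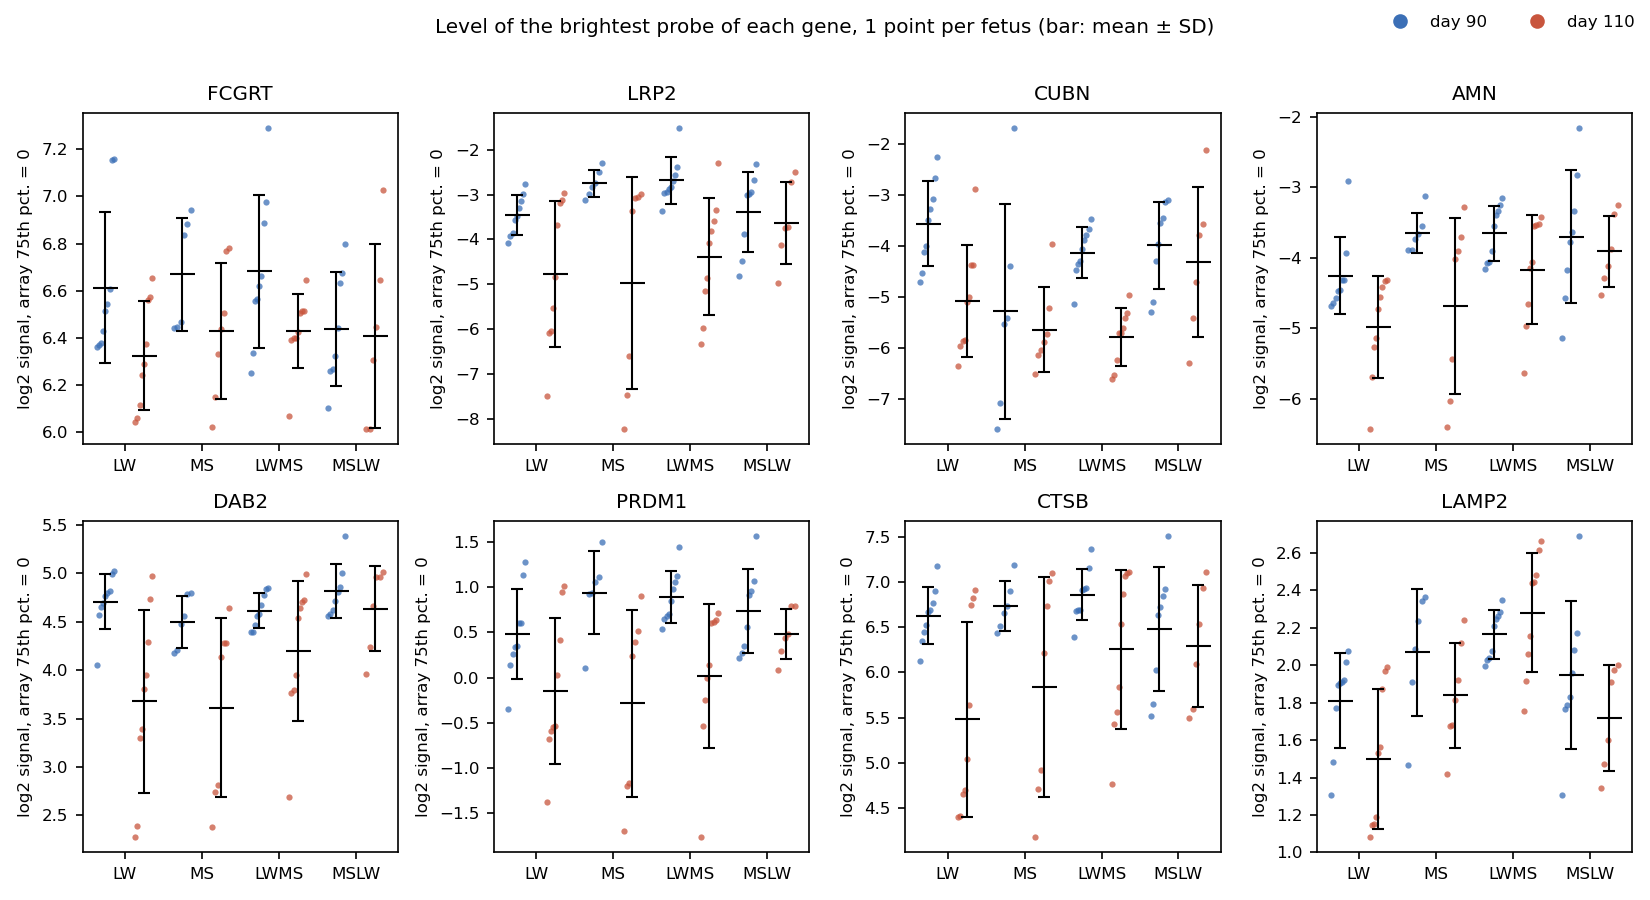
Level of the brightest probe of each gene (log2 signal, 0 being the 75th percentile of the array) in each fetus, by genotype and day, with the group mean and SD. For LRP2, DAB2, PRDM1 and CTSB the points of day 90 are close together and those of day 110 spread downward in LW, MS and LWMS. In MSLW the SD was larger at day 110 for DAB2 (0.275 and 0.44), and nearly equal or smaller for LRP2 (0.896 and 0.914), CTSB (0.686 and 0.676) and PRDM1 (0.468 and 0.277).

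LAMP2, a major glycoprotein of the lysosomal membrane, was not called for age in any of its 8 probes. Their differences ran from -0.25, in O1617, whose strand is in doubt as said above, to 0.23, with adjusted p from 0.07 to 0.657. The brightest probe ran from 1.31 to 2.69 at day 90 and from 1.08 to 2.66 at day 110.

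Cathepsin L and LAMP1 had no probe under the names used here, but 10 probes named CTSL1 and 2 named LAMP-1 were on the array, and their values are given apart from the counts above. The RefSeq table pairs the accession of the CTSL1 probes with CTSV, of which CTSL and CTSL1 are listed synonyms. The brightest CTSL1 probe ran from 4.09 to 5.71 with a median of 4.80 at day 90 and from 3.55 to 6.71 with a median of 5.75 at day 110. Thus it moved against CTSB: 10 of 10 CTSL1 probes rose, by 0.73 to 0.87 (adjusted p from 1.66e-06 to 5.88e-05). The LAMP-1 probes differed by 0.02 and -0.12 (adjusted p = 0.926 and 0.499).

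Within single genotypes few changes passed the threshold, and the differences were below 0 for 28 of the 28 probes in LW, 27 in MS, 22 in LWMS and 21 in MSLW. In LW, 1 of the 28 probes was called, that of DAB2 at -1.03 ± 0.27 (SE; limma, adjusted p = 0.00794), against 4.76% of all probes. That call was lost with median centring (adjusted p = 0.0292), without a filter on dim probes (0.0132), with the epithelial sum as a covariate (0.0107) and with the mean of both DAB2 probes (0.0299). In MS, 1 was called, the PRDM1 probe O7626 at -1.19 ± 0.30 (SE; adjusted p = 0.00624), against 3.12% of all probes. None was called in LWMS, against 9.86%, or in MSLW, against 5.43%. The median over the 28 probes was -0.65 in LW, -0.89 in MS, -0.44 in LWMS and -0.18 in MSLW. None of the 28 had an unadjusted p under 0.05 in MSLW, whereas 22 did in LW, 14 in MS and 9 in LWMS. These medians are not shown to differ: the age by genotype interaction was called in none of the 28 (lowest adjusted p = 0.726; 0 with an unadjusted p under 0.05) and in 0.0913% of all probes. The difference between MS and LW in the change with age was called in none (lowest adjusted p = 0.898; 0 with an unadjusted p under 0.05) and in 0.0395% of all probes, and the age by sow breed interaction in none (lowest adjusted p = 0.436; 1 with an unadjusted p under 0.05) and in 0.388%.

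**Figure D3:**
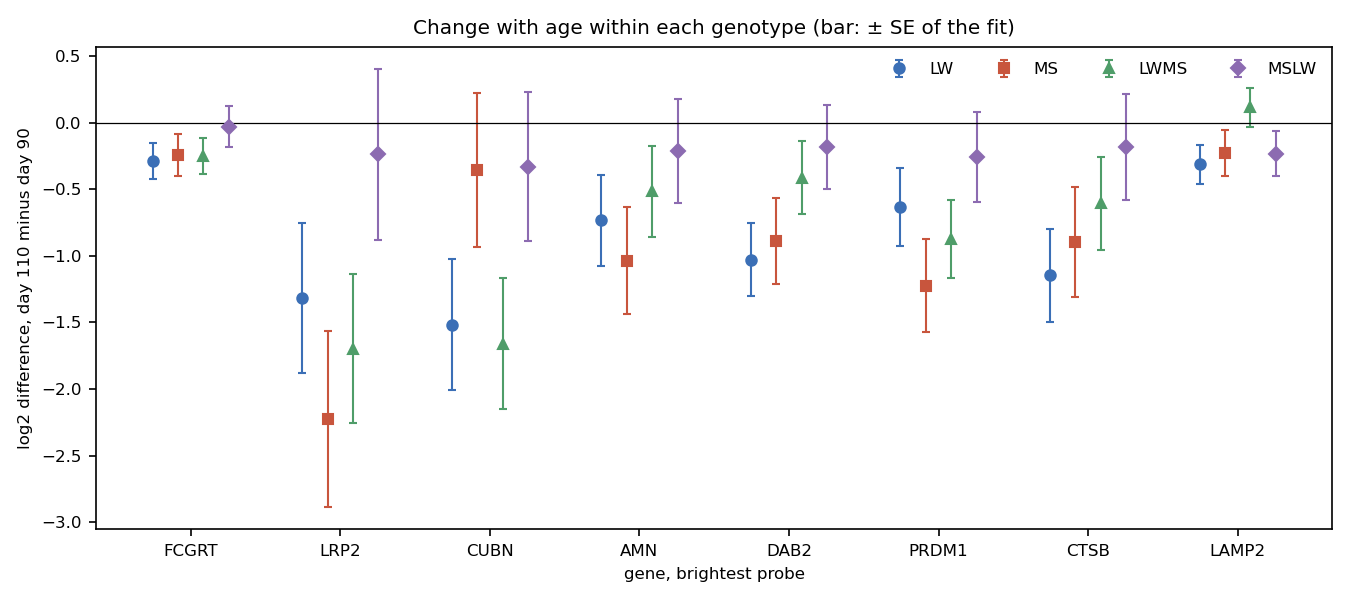
Log2 difference between day 110 and day 90 of the brightest probe of each gene within LW, MS, LWMS and MSLW, with its standard error. LRP2 runs from -2.23 in MS to -0.24 in MSLW, and each value for MSLW lies between -0.33 and -0.03.

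The spread between fetuses also differed with age. The SD within groups of DAB2 was 0.254 at day 90 and 0.801 at day 110, a ratio of 3.16. By brightest probe, the ratio was 2.76 for LRP2, 2.32 for CTSB and 1.84 for PRDM1, and 1.40 for AMN, 1.12 for LAMP2, 0.911 for FCGRT and 0.896 for CUBN. LAMP2 probes differed in this. Over all fetuses of an age, the SD of A_72_P712818 was 0.483 at day 90 and 0.967 at day 110, and that of A_72_P717088 was 0.389 and 0.463. Within MSLW the SD did not grow for CTSB (0.686 and 0.676) or PRDM1 (0.468 and 0.277). There it was 0.275 and 0.44 for DAB2, and 0.896 and 0.914 for LRP2. Over all 40515 probes tested the median ratio was 1.09, and 90% of them lay below 1.78. This ratio was looked at after the values had been seen and was not tested. The fit assumes 1 SD per probe for both ages. The same fetuses lay at the low end: 8 fetuses of day 110 were below all fetuses of day 90 in DAB2, PRDM1, LRP2 and CTSB alike, namely 557, 559, 572 and 575 (LW), 609 (LWMS) and 623, 627 and 632 (MS).

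Levels of the genes were then compared across fetuses as deviations from the mean of their group, in 7 pairs at each age, 14 relations in all, with 100000 permutations and Benjamini-Hochberg adjustment over the 14. Litter mates were again counted as independent. The permutation p-values, here and for all relations to marker sums, may therefore be too small. A further pair of CTSB with LAMP1 was not run for want of a LAMP1 probe. At day 110, PRDM1 and DAB2 rose and fell together (n = 31, Pearson's r = 0.906, permutation p = 1e-05, adjusted 7e-05; Spearman's rho = 0.898, permutation p = 1e-05, adjusted 7e-05), as did LRP2 and DAB2 (n = 31, r = 0.829, permutation p = 1e-05, adjusted 7e-05; rho = 0.806, permutation p = 1e-05, adjusted 7e-05), 1e-05 being the smallest p that these permutations can give. Without the 2 fetuses farthest from the median of the first gene, r was 0.877 and 0.781. The fetuses named above as low in DAB2, PRDM1, LRP2 and CTSB alike number 8. Leaving out 2 therefore cannot show whether these relations rest on them. At day 90, r was 0.595 for PRDM1 and DAB2 (n = 32, permutation p = 0.00044, adjusted 0.00205; rho = 0.434, permutation p = 0.0138, adjusted 0.0643), and 0.405 without 2 fetuses. This relation was lost when levels were used in place of deviations (r = 0.39, permutation test, adjusted p = 0.0705). The relation of LRP2 and DAB2 did not pass at day 90 (r = 0.163, permutation p = 0.373, adjusted 0.624; rho = 0.0817, permutation p = 0.657, adjusted 0.766), and whether the 2 ages differ in this was not tested. The other 10 relations, which include all those of CUBN with AMN, LRP2, DAB2, PRDM1 and FCGRT, did not pass, their r lying between -0.36 and 0.416. With deviations from both group and slide means, 3 of them passed (permutation tests), namely CUBN with AMN at day 90 (r = 0.44, adjusted p = 0.0366), CUBN with PRDM1 at day 90 (r = -0.42, adjusted p = 0.0391) and CUBN with LRP2 at day 110 (r = 0.51, adjusted p = 0.0139).

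**Figure D4:**
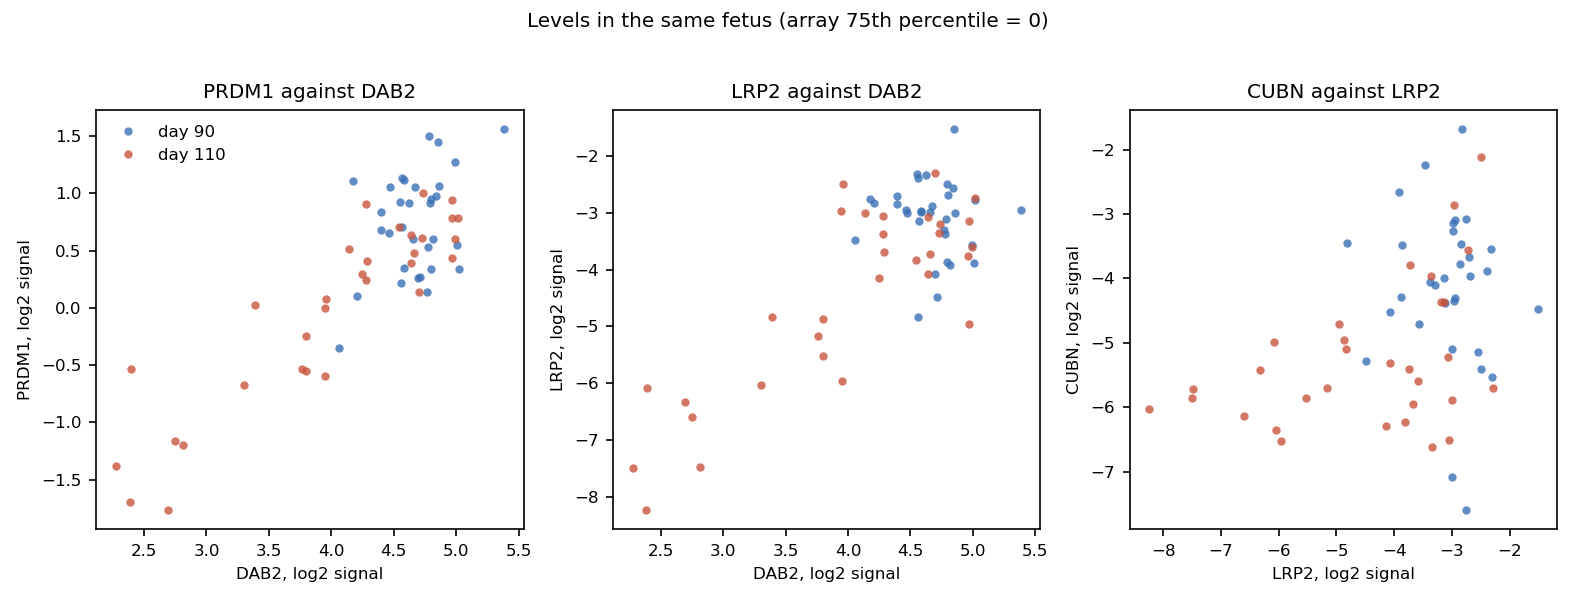
Level of PRDM1 against DAB2, LRP2 against DAB2, and CUBN against LRP2, 1 point per fetus (log2 signal, 0 being the 75th percentile of the array). In the first and second panels the fetuses of day 110 lie along a line that leads down from the cloud of day 90, and in the third they scatter.

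All relations to marker sums, those of FCGRT above included, were chosen after the data had been seen, so their p-values are descriptive. Of the 6 marker lists, that with the largest relations to the low levels at day 110 was that of markers of the muscle and connective tissue of the gut wall. Over the 11 measured smooth muscle and fibroblast markers, among them ACTA2, DES and COL1A1, the log2 of the summed level ran from 8.42 to 9.06 at day 90 and from 7.69 to 9.41 at day 110, and 3 of the 11 fell with age. At day 110 this sum was inversely related, within groups, to LRP2 (n = 31, r = -0.824, rho = -0.892), CTSB (r = -0.796, rho = -0.814), DAB2 (r = -0.768, rho = -0.785), PRDM1 (r = -0.746, rho = -0.731) and AMN (r = -0.727, rho = -0.645). Their permutation p for r was 1e-05 each, 0.00012 after adjustment over the 96 relations of 8 genes, 6 marker lists and 2 ages, and for rho it was 1e-05 to 1e-04, at most 0.00107 after adjustment. At day 90 the sum was also inversely related to LRP2 (n = 32, r = -0.501, permutation p = 0.00381, adjusted 0.0152; rho = -0.556, permutation p = 0.00106, adjusted 0.00727), while the relation of AMN passed for r alone and was -0.201 without 2 fetuses (r = -0.55, permutation p = 0.00141, adjusted 0.00712; rho = -0.283, permutation p = 0.115, adjusted 0.246). At day 110 FCGRT was less closely related to it (r = -0.528, permutation p = 0.00257, adjusted 0.0107; rho = -0.521, permutation p = 0.00321, adjusted 0.0178), and the value for CUBN did not pass (r = -0.292, permutation p = 0.11, adjusted 0.229; rho = -0.334, permutation p = 0.0666, adjusted 0.178). Without the 2 fetuses farthest from the median of the gene, r was between -0.84 and -0.62 for the first 5 genes, which again kept most of the fetuses named above as low. The sum of 6 endothelial markers, none of which changed past the threshold with age, was also inversely related at day 110 to LRP2 (r = -0.58), FCGRT (r = -0.555), AMN (r = -0.538), CTSB (r = -0.533) and DAB2 (r = -0.468), with permutation p adjusted to at most 0.0278. Both measured blood cell markers, AHSP and HBB, fell with age, by 1.80 and 1.68 on the log2 scale (limma, adjusted p = 3.34e-09 and 1.96e-06). Their sum was related to DAB2 at day 90 (r = -0.693, permutation p = 1e-05, adjusted 0.00012). With the smooth muscle and fibroblast sum as a covariate of the fit, 21 of the 28 probes were called lower and DAB2, for example, differed by -1.16 in place of -0.63. Of all 40515 probes, 3536 were called lower in that fit, against 3122 without the covariate. The sum of 7 epithelial markers, including KRT8, EPCAM and CDH1, ran from 7.13 to 8.07 at day 90 and from 7.36 to 8.33 at day 110. It adds linear levels, so that KRT8, the brightest of the 7, weighs most in it. With this sum as a covariate of the limma fit 14 probes were called lower, CUBN no longer among them (-0.89, adjusted p = 0.024). Of all probes, 3080 were called lower with this covariate. The part of these tissues in the change with age was not tested beyond these fits.

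No probe of the 28 was called between purebred MS and LW fetuses at day 90 (lowest adjusted p = 0.0423; 3 with an unadjusted p under 0.05), against 3.58% of all probes, or at day 110 (lowest adjusted p = 0.0221; 4 with an unadjusted p under 0.05), against 4.99%. With array weights 2 were called at day 90 and 9 at day 110. The shares above are those of the fit without weights. The shares of all probes called with weights are not given here, so these counts are not set against them. With these weights CTSB at day 110 differed between MS and LW by 1.22 (limma, adjusted p = 0.0049) in place of 0.36, LAMP2 at day 110 by 0.57 (adjusted p = 0.00195) and CUBN at day 90 by -1.65 (adjusted p = 0.00202). None was called for the breed of the sire at an adjusted p under 0.05 (limma, lowest 0.431; 0 with an unadjusted p under 0.05), against 6.95%.

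For the breed of the sow, 5 of the 28 probes were called higher with an MS sow, all of LAMP2, and 1 lower, that of CUBN. Over all probes, 7.26% were called higher and 8.71% lower. The 5 LAMP2 probes measure 1 gene and are not independent of each other. Fetuses also inherit genes from the sow, and males take their only X chromosome from her. An influence of the sow and one of alleles inherited from her therefore cannot be told apart here. The paper makes this point of maternal origin for SMS and SRPX2, as genes of the X chromosome. Breed of the sow varies between sows only, while litter mates were counted as independent. The p-values for the breed of the sow, and those between MS and LW above, may therefore be too small. Fetuses of MS sows (MS and LWMS) had higher LAMP2 in 5 of 8 probes at an adjusted p under 0.05, against 7.26% of all probes called higher with an MS sow. In the brightest probe the fetuses of MS sows ran from 1.42 to 2.66 with a median of 2.12 (n = 31), and those of LW sows from 1.08 to 2.69 with a median of 1.85 (n = 32). The ranges overlapped almost whole, and the difference was 0.34 ± 0.08 (SE; limma, adjusted p = 0.00142). The difference was above 0 within each of the 8 slides of the arrays, from 0.04 to 0.69. The other 4 probes were higher by 0.46 to 0.52, with adjusted p from 0.000226 to 0.0334, and the remaining 3 differed by -0.15, 0.20 and 0.46 (adjusted p = 0.357, 0.352 and 0.193). These 3 followed the brightest probe less closely (r = 0.143 to 0.524) than the other 4 did (0.597 to 0.865). The probe with 0.46 and r = 0.143 was O1617, whose strand is in doubt. CUBN was lower with an MS sow, by -0.97 ± 0.27 (SE; adjusted p = 0.00757), against 8.71% of all probes called lower. That call was lost with normexp correction (-0.27, adjusted p = 0.0971). Of 10 measured macrophage markers, CD163, C1QA, C1QB and C1QC were also higher with an MS sow, by 0.37 to 0.48. Across fetuses within groups, the brightest LAMP2 probe was inversely related to the macrophage sum at day 90 (n = 32, r = -0.695, permutation p = 3e-05, adjusted 0.00032; rho = -0.607, permutation p = 0.00034, adjusted 0.00297; r = -0.671 without 2 fetuses), and at day 110 the relation did not pass (n = 31, r = 0.067, permutation p = 0.723, adjusted 0.847). DAB2 (r = -0.573, permutation test, adjusted p = 0.00627) and PRDM1 (r = -0.554, adjusted p = 0.00549) were also inversely related to it at day 90, while FCGRT was positively related (r = 0.529). The part of macrophages in the LAMP2 difference between sow breeds was not tested.

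**Figure D5:**
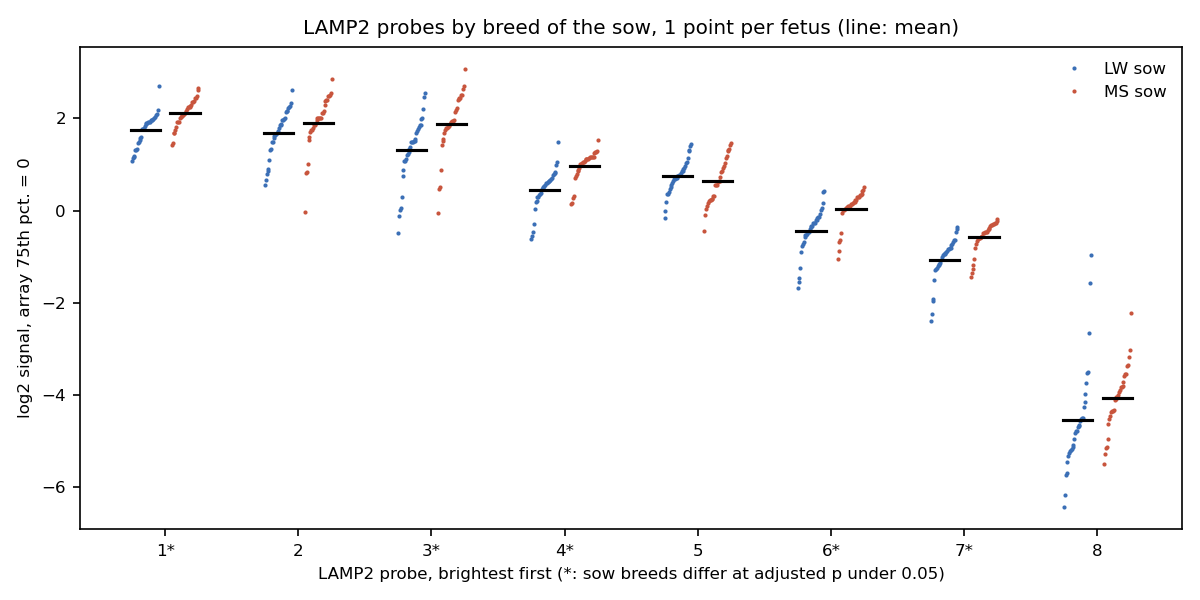
Level of the 8 LAMP2 probes, brightest first, in fetuses of LW sows (n = 32) and MS sows (n = 31), 1 point per fetus with the mean (log2 signal, 0 being the 75th percentile of the array); a star marks an adjusted p under 0.05. The mean of the MS sows is above that of the LW sows in 7 of the 8 probes.

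Other genes of the pathway, by their brightest tested probe, set the background. Of 12 receptors and partners, 4 rose and 1 fell with age, with a median difference of 0.36. PIGR, the receptor that carries IgA across epithelia, rose by 5.01 ± 0.38 (SE; limma, adjusted p = 1.45e-16), GIF, the intrinsic factor that cubilin binds, by 3.39 ± 0.61 (adjusted p = 8.77e-06), and TCN2, the blood carrier of vitamin B12, by 1.83 ± 0.19 (adjusted p = 9.37e-12). None of 16 clathrin coat and adaptor genes reached the minimum difference of 0.5 with age (median 0.07). CLTC, the clathrin heavy chain, differed by 0.28 (adjusted p = 2.27e-05), NUMB by 0.30 (adjusted p = 0.00032) and AP2M1 by 0.27 (adjusted p = 0.00176), below that minimum. Of 16 genes of endosome traffic 1 was called, the apical recycling motor MYO5B, which rose by 0.62 ± 0.11 (adjusted p = 2.41e-06), while RAB14 differed by 0.40 (adjusted p = 2.38e-05) and EEA1 by 0.34 (adjusted p = 0.000921). Of 22 lysosomal hydrolases and related genes other than the cathepsins above, 5 fell and none rose (median -0.38). Among them NPC2, a cholesterol carrier of the lysosome lumen, fell by 1.06 on the log2 scale (adjusted p = 9.81e-07), the protease CTSC by 0.79 (adjusted p = 0.00222) and the glucuronidase GUSB by 0.74 (adjusted p = 0.000142). Of 16 genes of the lysosomal membrane and its acidification, the calcium channel MCOLN1 rose (0.62, adjusted p = 2.41e-05) and TFEB, a transcription factor of lysosomal genes, fell (-0.52, adjusted p = 4.92e-06), with a median of -0.04. Of 5 protease inhibitors, SPINK4 rose (0.87, adjusted p = 1.78e-05) and SERPINA1 fell (-1.18, adjusted p = 2.47e-05). Of 11 digestive and metabolic genes of the enterocyte, 7 rose and 1 fell (median 1.41), with ASS1 (2.81), FABP1 (2.55) and ALPI (2.47) having the largest differences (adjusted p = 1.2e-11, 1.77e-19 and 1.89e-08).

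Over the 63 fetuses, the named genes whose levels followed each gene most closely were HSD17B14 (r = 0.968), GPX3 (0.961) and CTSA (0.96) for CTSB, OSBPL10 (0.924), CHKA (0.915) and FZD4 (0.873) for DAB2, and TFEB (0.882), SLC6A8 (0.876) and CHKA (0.874) for PRDM1. For LRP2 they were F2 (0.883), CTSC (0.857) and HVCN1 (0.851), and for AMN they were CTSC (0.835), SLC16A13 (0.831) and RENBP (0.821). CTSC thus stood among the 3 closest genes of both LRP2 and AMN, and CHKA among those of both DAB2 and PRDM1. FCGRT was followed by RPL10L (0.9), PHB2 (0.895) and RPL10 (0.895), LAMP2 by ARHGAP27 (0.759), SLC7A8 (0.736) and MTMR4 (0.725), and CUBN, least closely, by TFCP2L1 and FAM161A (0.633 each) and PALM (0.615). These are descriptions over 16766 probes with a named gene, and they mix the difference between ages with that between fetuses.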

How the data were processed

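Jejunum RNA of 63 male fetuses in 8 groups of genotype and day was measured on one-colour Agilent porcine arrays, 7 or 8 on each of 8 slides. Each scanner file as deposited by the authors holds linear spot intensity and flags, from Agilent Feature Extraction 10.10.1.1. A matrix of log2 values for 39446 probes was also deposited.

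Here log2 of the background-subtracted intensity, less the 75th percentile of the array, was used. Control spots were left out, flagged outliers were set to missing, and replicate spots were averaged. The fit kept probes flagged well above background in 75% or more of the fetuses of any group. This subtraction makes changes of dim probes uncertain in size. The 8 group means were fitted with limma 3.58.1 in R 4.3.3, with Benjamini-Hochberg adjustment over all 40515 probes, two-sided. The brightest tested probe stood for a gene. Changes with age and between MS and LW needed an adjusted p of at most 0.01 and an absolute difference of 0.5, and other contrasts an adjusted p under 0.05. From every other gene list, up to 3 genes called for age with the largest differences were named. Relations across fetuses were tested by two-sided permutation in numpy, and those to marker sums were added after seeing the data. The fit was tested on simulated data.

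Members and lists were chosen with earlier results of these data known. Alternatives were normexp correction (offset 50), median centring, quantile normalization, the authors' values, other filters, slide as a block, array weights, fits without LW fetuses 484 and 469, the mean of all probes of a gene, and, added after seeing the data, 2 marker sums as covariates. No genome build is given for the probes, so no coordinates are printed.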

Additional observations from a re-analysis of the deposited data

Results flagged for a closer look

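In 64 sets of a gene and a group, 4 held a fetus that stood apart from the others by Dixon's criterion at the 95% level, and chance gives about 1 in 20. LW fetus 484 at day 90 had an AMN level of -2.92, against -3.93 in the nearest fetus, and a DAB2 level of 4.06, against 4.57 in the nearest. LWMS fetus 609 at day 110 had an FCGRT level of 6.07, against 6.39 in the nearest fetus, and a PRDM1 level of -1.77, against -0.53. Without fetuses 484 and 469, 14 of the 28 probes were called lower at day 110, as with them.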

How the results depend on the processing

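The number of the 28 probes called for the mean change with age was 14, and 11 to 21 under the 11 alternatives, all lower at day 110. Over all probes, 3122 were called lower, and from 1479 (normexp correction) to 3704 (array weights) under the alternatives, which did not all hold the same probes. PRDM1 and DAB2 were called in each of them by their brightest probe, whereas DAB2 was lost with the mean of its 2 probes (-0.54, adjusted p = 0.0137). Of 8 genes, normexp correction kept DAB2, PRDM1 and CTSB. LRP2, CUBN and AMN were lost with it, and the cause was not tested. Counts within a genotype were small and moved with the setting, and the cause was not tested. For LW (1 called) the count was 5 with quantile normalization, 0 with median centring, 7 in the authors' values, 0 without a filter, 4 with slide as a block, 15 with array weights, 20 with the smooth muscle and fibroblast sum and 3 with the epithelium sum as a covariate. For MS (1 called) it was 0 with median centring, without a filter and with slide as a block, 2 with array weights, and 14 and 4 with these covariates. For LWMS (0 called) it was 1 with normexp correction, in the authors' values, with array weights and without fetuses 484 and 469, and 18 and 2 with the covariates, and for MSLW (0 called) it was 9 with the smooth muscle sum. With array weights, 2 probes were called between MS and LW at day 90 and 9 at day 110, 13 for the breed of the sow and 1 for the age by genotype interaction. With the smooth muscle sum, 1 was called between MS and LW at day 110. For these counts within genotypes, between breeds and for the sow, the share of all probes under the same setting is not given here. Of 14 relations across fetuses, 3 passed, and 6 did with deviations from group and slide means, the added 3 all with CUBN. No paired analysis was possible, because the labels do not name the sow and litter mates could not be matched. No single value that was called changed sign.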
